A study of Rattus norvegicus with 18 samples.

Results

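Erythroid genes other than globins, 10 genes that serve red blood cells, were followed in perinatal rat lung: Alas2, Ahsp, Slc4a1, Epb42, Ank1, Rhd, Car1, Klf1, Gata1 and Hemgn. They were taken by name, together with every probe set annotated to them, which gave 13 probe sets for 10 of the 11590 genes measured. The names were chosen with earlier results of these data known, so their counts beside all genes are descriptions and not independent support. At the brightest probe set of each of the 10 genes the signal was lower in RNA of large polysomes than in total RNA of the same lysate, in 9 of 9 lysates. The size of that deficit ranged from a mean log2 difference of -2.02 for Klf1 to -0.69 for Ank1. Epb42, Klf1 and Gata1 passed a filter on low signal through their total RNA and so were bound to show a deficit. Among the other 7 genes the deepest mean was -1.85, for Ahsp. In 1 gene, Alas2, the deficit was deeper after birth than at fetal day 19, a call close to its threshold.

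The lungs came from Wistar rats at 3 stages: fetal day 19 (FD19, canalicular lung), fetal day 22 (FD22) and P1, which is 5 h after birth. Fetuses were taken by Caesarean section and newborns were born vaginally, so birth itself and the mode of delivery cannot be told apart from age between P1 and the fetal stages. Each stage had 3 litters and hence 3 lysates, and from each of these 9 lysates polysomal RNA (mRNA with more than 7 ribosomes, from a sucrose gradient) and total RNA were put on separate arrays. The 6 groups of 3 arrays are polysomal and total RNA at FD19, at FD22 and at P1, and no group carried a mutation or a drug.

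Red cells are made from erythroblasts, which in the rodent fetus mature mainly in the liver, lose their nucleus and enter the blood as reticulocytes. A reticulocyte still holds mRNA and ribosomes but makes no new mRNA, and it loses both as it becomes a mature red cell. Whole lung holds blood in its vessels, so transcripts of red cells are part of lung RNA. The fraction on large polysomes holds mRNAs that many ribosomes read at once. How much of each mRNA sat on smaller polysomes, on single ribosomes or free of ribosomes was not measured.

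All values are array signals as the authors deposited them, scaled to the same 2% trimmed mean of about 150 on each of the 18 arrays. Array medians lay between 51.6 and 73.5. Because polysomal and total arrays were scaled alike, a ratio of the pair is relative to the average mRNA, and a percentage of the total signal is not the percentage of molecules on polysomes. Log2 differences were taken on log2(signal + 5.5) and tested with limma over 21675 probe sets, with a gene called where the Benjamini-Hochberg adjusted p was under 0.05. Errors are the SE of limma, with n = 3 arrays per group, and the number of arrays limits the precision. Replicates are separate litters.

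Markers of the lung were present on every array: summed over 7 genes of lung epithelium, the signal was between 11425 and 34102. The second FD22 lysate stood apart. The summed signal of 12 hepatocyte genes on the array was 11762 in its polysomal RNA and 11834 in its total RNA, against 252.6 to 573.8 in the other FD22 arrays, 216.0 to 425.0 at FD19 and 358.8 to 515.4 at P1. Albumin (Alb) alone read 4891.5 in polysomal and 5662.0 in total RNA of that lysate, and 31.6 to 147.0 in the other FD22 arrays. The fetal liver makes red cells, so the differences at FD22 are also given without this lysate, and its part in the erythroid signals was otherwise not tested. In 6 of 6 groups the array numbered 1 had the dimmest median, and what the arrays with 1 number share was not recorded in the labels.

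Of the 13 probe sets, 12 passed the filter on low signal, a signal above 40.8 on at least 3 arrays, and every gene kept at least 1. The 1 left out belonged to Ank1 (1397805_at) and read 0.4 to 11 on all 18 arrays. Epb42, Klf1 and Gata1 passed through their total RNA, where 9 of 9 arrays exceeded 40.8. On polysomal arrays 2 of 9 exceeded it for Epb42, 1 for Klf1 and 1 for Gata1, so these 3 genes were bound to show a deficit once kept, and the counts of calls and of groups apart are also given for the other 7 genes. In a whole organ, fewer red cells and less RNA per red cell cannot be told apart.

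Alas2 encodes the erythroid form of the enzyme that starts heme synthesis, and its mRNA is known to carry an iron-responsive element near its start that lets iron regulatory proteins hold back translation when iron is scarce. The polysomal signal (1367985_at) was 1258.7, 1257.5 and 918.6 at FD19, 802.7, 878.5 and 607.0 at FD22, and 617.6, 635.0 and 797.6 at P1. The total signal was 1999.5, 1580.5 and 1245.5 at FD19, 2068.7, 2200.7 and 1814.5 at FD22, and 2643.8, 2077.6 and 2853.3 at P1. The highest polysomal arrays were thus those of FD19, while the highest total arrays were at P1, and polysomal and total arrays overlapped at FD19 alone.

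Lysate by lysate, the polysomal signal of Alas2 was 63.0%, 79.6% and 73.8% of the total signal at FD19. It was 38.8%, 39.9% and 33.5% at FD22 and 23.4%, 30.6% and 28.0% at P1. The 3 stages did not overlap. The log2 difference between polysomal and total RNA was -0.48 ± 0.18 at FD19 (limma, adjusted p = 0.0717), -1.42 ± 0.18 at FD22 (adjusted p = 4.09e-05) and -1.87 ± 0.18 at P1 (adjusted p = 2.2e-06). With the lysate as a block, the FD19 difference was called as well (adjusted p = 0.00452).

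Between FD19 and P1 the log2 ratio of Alas2 fell by 1.4 ± 0.26 (limma, adjusted p = 0.0459), with all 3 P1 lysates below all 3 FD19 lysates. This was the only member called among the 10, in a comparison where 0.173% of 11590 genes were called lower (20 genes), and Alas2 ranked 26 from the lowest. The call is close to the threshold: the adjusted p was 0.0014 with the lysate as a block and 0.117 to 0.265 when any 1 lysate of FD19 or P1 was left out, while the change itself stayed between -1.49 and -1.29 in all alternatives tried. It was also lost without the first or second FD22 lysate (0.0528 and 0.059), with arrays 2 and 3 of each group alone (0.384), without the filter (0.0677), with median centring (0.0989) and without the variance trend (0.13). The parts of this change were -0.94 ± 0.26 at FD22 relative to FD19 (unadjusted p = 0.00181, adjusted p = 0.999) and -0.46 ± 0.26 at P1 relative to FD22 (adjusted p = 1.0), and neither was called.

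Total Alas2 RNA rose by 0.66 ± 0.18 at P1 relative to FD19 (limma, adjusted p = 0.011), again with no overlap between the groups. That call was lost without the third FD19 lysate (adjusted p = 0.0662) or the third P1 lysate (0.054). Alas2 is thus the member in which the total signal was higher and the polysomal signal lower after birth, with polysomal signals of 617.6 to 797.6 at P1 and 918.6 to 1258.7 at FD19. No test was made of polysomal RNA alone between stages. The housekeeping form of the enzyme, Alas1, gave total signals of 442.3, 291.1 and 274.2 at P1 and 109.7, 155.2 and 107.7 at FD19, a rise of 1.38 ± 0.20 (adjusted p = 4.35e-05). Its mean ratio of polysomal to total RNA was 0.00 ± 0.12 (adjusted p = 0.982), and its ratio change from FD19 to P1 was 0.06 ± 0.28 (adjusted p = 0.976).

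**Figure D1:**
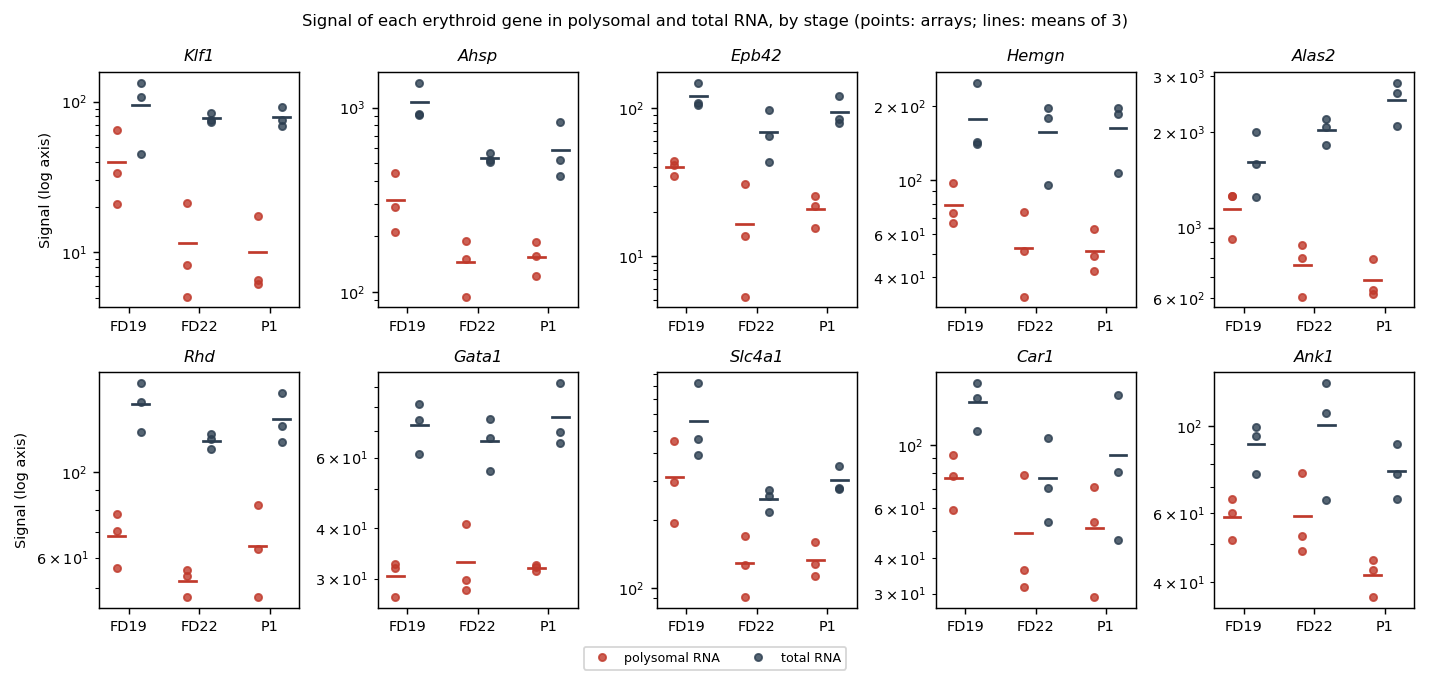
Signal of each gene on the 18 arrays (log axis), with polysomal RNA in red left of total RNA in dark blue at each stage; points are arrays and lines are means of 3. Polysomal means lie below total means at each stage in all 10 panels, with points of the groups overlapping in some, and for Alas2 the gap widens from FD19 to P1, where polysomal arrays read 617.6 to 797.6 and total arrays 2077.6 to 2853.3.

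Ahsp encodes the chaperone that binds free alpha globin until beta globin joins it. Its polysomal signal (1389160_at) was 442.6, 288.0 and 210.2 at FD19, 189.2, 150.4 and 94.1 at FD22, and 121.7, 156.1 and 185.4 at P1. Total RNA gave 1364.8, 921.8 and 915.7 at FD19, 506.2, 519.7 and 563.9 at FD22, and 424.0, 517.2 and 830.4 at P1. No polysomal array reached any total array of its stage.

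The deficit of Ahsp was deep and nearly the same at each stage. Its log2 difference was -1.79 at FD19, -1.89 at FD22 and -1.86 at P1, each with an SE of 0.28, and the highest adjusted p of the 3 was 0.000236 (limma). The single lysates ranged from -2.51 to -1.39, both of them at FD22, and the mean over the stages was -1.85 ± 0.16 (adjusted p = 6.07e-08). The ratio change from FD19 to P1 was -0.07 ± 0.40 (adjusted p = 0.979). Both fractions were lower at the later stages: total Ahsp fell by 0.98 ± 0.28 at FD22 (adjusted p = 0.0214) and by 0.88 ± 0.28 at P1 (adjusted p = 0.0249), each relative to FD19. With arrays 2 and 3 alone the falls were -0.76 and -0.48 and were not called (adjusted p = 0.0701 and 0.205). The FD22 fall also lost its call without the first FD19 lysate (0.0799) or the second FD22 lysate (0.0571), and the P1 fall without the first FD19 (0.0875), first P1 (0.125) or second P1 lysate (0.0916).

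Slc4a1, Epb42, Ank1 and Rhd belong to the red cell membrane. Slc4a1 encodes band 3, the anion exchanger that also anchors the skeleton, and Epb42 encodes protein 4.2, which binds band 3. Ank1 encodes ankyrin, which ties band 3 to spectrin, and Rhd encodes the Rh blood group protein of the same membrane complexes.

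The brighter Slc4a1 probe set (1387656_at) gave polysomal signals of 451.0, 297.4 and 193.9 at FD19, 127.1, 171.1 and 91.0 at FD22, and 112.8, 127.7 and 161.0 at P1. Its total signals were 821.6, 390.3 and 462.4 at FD19, 273.3, 217.2 and 257.4 at FD22, and 278.4, 277.2 and 349.5 at P1. The groups overlapped at FD19 and were apart at FD22 and P1. The log2 differences were -0.82 ± 0.28 (limma, adjusted p = 0.0456), -0.95 ± 0.28 (adjusted p = 0.0296) and -1.15 ± 0.28 (adjusted p = 0.00865) at FD19, FD22 and P1. Of 19 alternatives the FD19 call was lost in 12, among them those without any 1 FD19 lysate (adjusted p = 0.054, 0.0737 and 0.241) and the dimmer probe set (-0.43, adjusted p = 0.132). The FD22 call was lost without the first (0.115) or the third FD22 lysate (0.253) and with median centring (0.0924), and the P1 call without the first (0.0615) or second P1 lysate (0.0561). In the second FD22 lysate, the one with hepatocyte RNA, the polysomal signal was 78.8% of total, against 46.5% and 35.4% in the other FD22 lysates, and without it the FD22 difference was -1.26 ± 0.34 (adjusted p = 0.0276).

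Total Slc4a1 fell by 1.08 ± 0.28 at FD22 (limma, adjusted p = 0.013) and by 0.81 ± 0.28 at P1 (adjusted p = 0.0416), each relative to FD19. The other Slc4a1 probe set (1369634_at) gave -0.53 ± 0.20 (adjusted p = 0.0812) and -0.35 ± 0.20 (adjusted p = 0.219) for the same comparisons, so the falls rest on 1 probe set. The P1 fall was -0.44 with arrays 2 and 3 alone (adjusted p = 0.306) and -0.50 without the first FD19 lysate (adjusted p = 0.161). Its call was lost in 10 of 19 alternatives, among them those without any 1 P1 lysate (adjusted p = 0.117, 0.126 and 0.0524). The call of the FD22 fall was lost in 2 of 19. Both probe sets were lower on polysomes over the 3 stages, at -0.97 ± 0.16 (adjusted p = 0.000107) and -0.71 ± 0.12 (adjusted p = 8.14e-05).

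Epb42 (1382618_at) read 34.8 to 43.8 in polysomal RNA and 105.6 to 149.5 in total RNA at FD19. At FD22 it read 5.3, 30.7 and 13.7 in polysomal RNA and 65.4, 97.4 and 43.6 in total RNA, the highest of each being the second lysate. At P1 the polysomal arrays read 15.4 to 25.4 and the total arrays 79.8 to 121.6. The groups were apart at each stage, with log2 differences of -1.46 ± 0.35 at FD19 (limma, adjusted p = 0.00625), -1.86 ± 0.35 at FD22 (adjusted p = 0.00147) and -1.93 ± 0.35 at P1 (adjusted p = 0.000808). The FD19 call was lost without the first (adjusted p = 0.0533) or second FD19 lysate (0.0541). Several polysomal signals are near the constant of 5.5 that was added, which shrinks their log2 differences. Total Epb42 was -0.82 ± 0.35 at FD22 relative to FD19 and was not called (adjusted p = 0.122), but without the second FD22 lysate it was -1.08 ± 0.30 and was called (adjusted p = 0.0197).

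Rhd (1370079_at) had a nearly equal deficit at the 3 stages. Polysomal RNA gave 77.8, 56.5 and 70.4 at FD19, 55.9, 47.4 and 53.7 at FD22, and 47.5, 63.2 and 82.4 at P1. Total RNA gave 170.9, 152.4 and 127.8 at FD19, 122.2, 114.9 and 126.2 at FD22, and 120.1, 132.0 and 160.9 at P1. No groups of 1 stage overlapped, and the log2 differences of the stages were -1.08, -1.13 and -1.06, each with an SE of 0.19 and an adjusted p of at most 0.000741 (limma). The ratio change from FD19 to P1 was 0.03 ± 0.27 (adjusted p = 0.99), and total Rhd was -0.12 ± 0.19 at P1 relative to FD19 (adjusted p = 0.694).

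Ank1 had the smallest deficit. Its brighter probe set (1389398_at) gave polysomal signals of 51.1 to 64.9 at FD19, 48.0 to 75.9 at FD22 and 36.6 to 45.6 at P1. The total signals were 75.5 to 99.6, 64.7 to 128.6 and 65.1 to 89.8 at the same stages, so the groups overlapped at FD22. The log2 differences were -0.57 ± 0.23 at FD19, which was not called (limma, adjusted p = 0.0841), -0.69 ± 0.23 at FD22 (adjusted p = 0.0465) and -0.80 ± 0.23 at P1 (adjusted p = 0.0208). The FD22 call was lost in 11 of 19 alternatives, among them those without the second FD22 lysate (-0.68 ± 0.25, adjusted p = 0.0985), which held the highest polysomal and total signal of that stage, without the third (adjusted p = 0.333) and with quantile normalization (0.121). The P1 call was lost in 6 of 19, among them those without any 1 P1 lysate (adjusted p = 0.0727, 0.115 and 0.0956). A dimmer Ank1 probe set (1395046_at) was at 0.03 ± 0.45 at FD19 (adjusted p = 0.972) and had a mean of -0.33 ± 0.26 over the stages (adjusted p = 0.321), against -0.69 ± 0.13 (adjusted p = 0.000384) for the brighter one.

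Klf1 and Gata1 encode transcription factors on which red cell formation depends: GATA1 acts from the progenitor onward, and KLF1 turns on adult beta globin and many membrane and heme genes. Klf1 (1382033_at) read 64.8, 33.4 and 21.1 in polysomal RNA at FD19, 5.1, 21.3 and 8.3 at FD22, and 6.6, 6.2 and 17.5 at P1. In total RNA it read 133.6, 107.4 and 45.0 at FD19, 73.7, 84.6 and 75.8 at FD22, and 76.0, 69.4 and 92.0 at P1. Polysomal and total arrays overlapped at FD19 and lay far apart at FD22 and P1.

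The polysomal signal of Klf1 was 48.5%, 31.1% and 46.9% of the total signal at FD19, 6.92%, 25.2% and 10.9% at FD22, and 8.68%, 8.93% and 19% at P1. The 25.2% belongs to the lysate with hepatocyte RNA. The log2 differences were -1.15 ± 0.41 at FD19, not called (limma, adjusted p = 0.0544), -2.40 ± 0.41 at FD22 (adjusted p = 0.000731) and -2.50 ± 0.41 at P1 (adjusted p = 0.000376), and with the lysate as a block FD19 was called too (adjusted p = 0.00481). All 3 P1 lysates were below all 3 FD19 lysates, but the ratio change of -1.36 ± 0.58 was not called (unadjusted p = 0.0313, adjusted p = 0.438). It was -1.75 with a constant of 0.9 and -0.69 with a constant of 26.3, since the polysomal signals at FD22 and P1 lie close to the constant added. Total Klf1 was -0.14 ± 0.41 at P1 relative to FD19 (adjusted p = 0.852).

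Gata1 (1368510_at) had nearly the same difference at each stage. It read 27.0 to 32.6 in polysomal and 61.1 to 81.4 in total RNA at FD19, 28.1 to 41.1 and 55.6 to 74.9 at FD22, and 31.3 to 32.5 and 65.3 to 91.9 at P1. The log2 differences were -1.11, -0.90 and -1.10, each with an SE of 0.20 and an adjusted p of at most 0.00614 (limma). The highest polysomal array of FD22, 41.1, was again that of the second lysate, and without it the FD22 difference was -1.03 ± 0.25 (adjusted p = 0.0167). Without the first FD22 lysate it was -0.72 and not called (adjusted p = 0.0734), nor was it called with quantile normalization (0.0621) or with arrays 2 and 3 alone (0.089). The ratio change from FD19 to P1 was 0.01 ± 0.29 (adjusted p = 0.997).

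Hemgn encodes hemogen, a nuclear protein of blood cell precursors. Its probe set (1387756_s_at) gave polysomal signals of 97.1, 73.4 and 66.7 at FD19, 51.4, 73.8 and 33.4 at FD22, and 42.3, 49.0 and 62.8 at P1. Total signals were 248.8, 142.0 and 140.5 at FD19, 195.2, 178.5 and 95.0 at FD22, and 106.2, 184.5 and 196.1 at P1. No groups of 1 stage overlapped. The log2 differences were -1.08 ± 0.31 (limma, adjusted p = 0.0187), -1.47 ± 0.31 (adjusted p = 0.00359) and -1.53 ± 0.31 (adjusted p = 0.00209) at FD19, FD22 and P1, and the ratio change from FD19 to P1 of -0.45 ± 0.44 was not called (adjusted p = 0.825). The FD19 call was lost without any 1 FD19 lysate (adjusted p = 0.0872, 0.0784 and 0.0895) and with arrays 2 and 3 alone (0.0582).

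Car1 encodes carbonic anhydrase 1, an abundant enzyme of the red cell that interconverts carbon dioxide and bicarbonate. Its probe set (1372374_at) gave polysomal signals of 92.8, 78.2 and 59.4 at FD19, 31.8, 78.9 and 36.4 at FD22, and 29.2, 53.6 and 71.1 at P1. Its total signals were 166.0, 147.0 and 112.3 at FD19, 53.6, 106.3 and 70.8 at FD22, and 46.3, 80.8 and 151.2 at P1. The lysates of 1 stage differed widely in both fractions together, and the groups overlapped at FD22 and P1. The polysomal signal was nonetheless between 47.0% and 74.2% of the total signal in each lysate. No single stage was called (limma, adjusted p = 0.12, 0.257 and 0.199), while the mean over the stages of -0.74 ± 0.22 was called (adjusted p = 0.0101, lower in 9 of 9 lysates). With the lysate as a block, all 3 stages were called (adjusted p = 0.0017 at FD19, 0.0108 at FD22 and 0.00507 at P1).

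**Figure D2:**
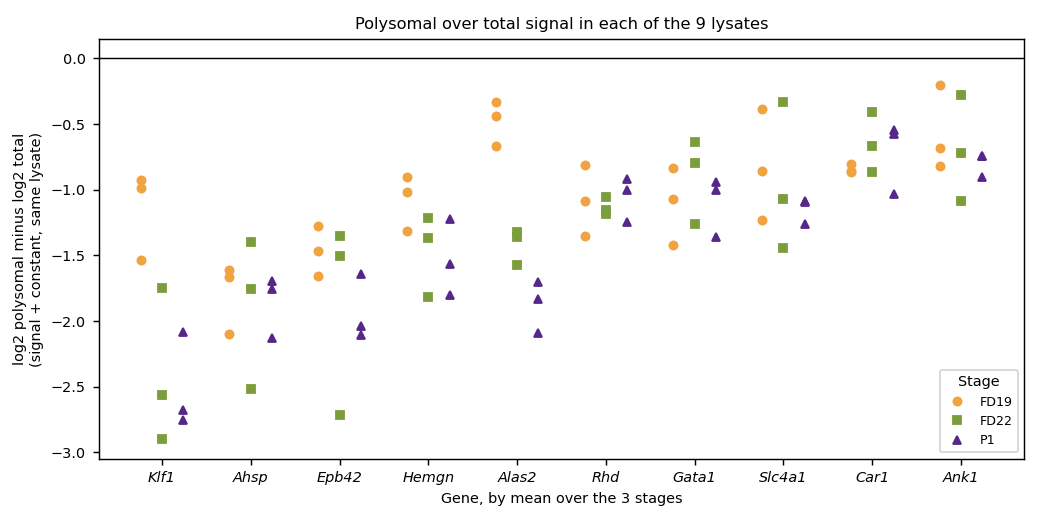
Log2 polysomal minus log2 total signal (signal + 5.5) in each of the 9 lysates, for the brightest kept probe set of each gene, ordered by the mean over the 3 stages; circles are FD19, squares FD22 and triangles P1. Every point lies below 0; the 3 stages of Alas2 do not overlap, and its P1 lysates lie at -2.09 to -1.70.

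Set side by side, the mean log2 ratios over the 3 stages were -2.02 ± 0.24 for Klf1, -1.85 ± 0.16 for Ahsp, -1.75 ± 0.20 for Epb42, -1.36 ± 0.18 for Hemgn and -1.26 ± 0.11 for Alas2. The other 5 were -1.09 ± 0.11 for Rhd, -1.04 ± 0.12 for Gata1, -0.97 ± 0.16 for Slc4a1, -0.74 ± 0.22 for Car1 and -0.69 ± 0.13 for Ank1. Apart from the step between Epb42 and Hemgn, neighbours in this order differ by less than the sum of their SEs, and differences between genes were not tested. The order shifts with stage: Alas2 had the smallest deficit of all 10 genes at FD19 and, at -1.87, one close to those of Ahsp and Epb42 at P1.

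At FD19, 6 of the 10 genes were called lower on polysomes, where 9.53% of all 11590 genes were called lower (limma). At FD22 it was 9 of 10 (background 6.89%), at P1 9 of 10 (8.54%) and for the mean of the stages 10 of 10 (22.2%). The members were chosen with earlier results of these data known, so these counts describe them and do not test them. Among the 7 genes that did not pass the filter through total RNA alone, 4, 6, 6 and 7 were called. The uncalled genes were Alas2, Klf1, Car1 and Ank1 at FD19 and Car1 at FD22 and P1. With the lysate as a block, all 10 were called at each stage, with backgrounds of 14.7%, 12% and 12.8%. Without the second FD22 lysate, 8 of 10 were called at FD22 (background 3.89%) and 10 of 10 for the mean (20.1%). The log2 differences at FD22 were then -2.73 for Klf1, -2.03 for Epb42, -1.95 for Ahsp, -1.59 for Hemgn, -1.47 for Alas2 and -1.11 for Rhd, with adjusted p of at most 0.0113, while Car1 at -0.76 (adjusted p = 0.254) and Ank1 were not called. Without the first or the second FD19 lysate, 3 of 10 were called at FD19 (backgrounds 5.36% and 3.81%).

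The median log2 difference of the 10 genes was -1.08 at FD19, -1.27 at FD22 and -1.34 at P1, beside medians of all genes of 0.00, 0.01 and 0.01. Over the 7 genes not kept through total RNA alone it was -0.84, -1.13 and -1.15. All polysomal arrays lay below all total arrays for 7 of 10 members at FD19 (background 20.8%), 8 of 10 at FD22 (14.0%) and 9 of 10 at P1 (17.2%). Among those 7 genes it was 5, 5 and 6. At the brightest probe sets the polysomal signal was lower in 9 of 9 lysates for 10 of 10 members, which held for 12.3% of all genes, and the 7 genes are among them. For members chosen with earlier results known, such counts are descriptions. The dimmer Ank1 probe set that was kept was lower in 8 of 9 lysates. Within every single lysate, all 10 members were below the median ratio of all genes, and the mean over members was between -1.48 and -1.01. The gene with the lowest ratio was Klf1, Ahsp or Epb42 in each of the 9 lysates.

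The change of the ratio between stages was called for 0 of 10 genes at FD22 relative to FD19 (0.0% of all genes, unadjusted p under 0.05 for Alas2 and Klf1). At P1 relative to FD22 it was also called for 0 of 10 (0.0259%, none with unadjusted p under 0.05). Without the second FD22 lysate both counts were 0 too (0.0% of all genes each). With all lysates, 8 of 10 genes were below 0 at P1 relative to FD22, beside 46.8% of all genes, with a member median of -0.088. Without that lysate it was 3 of 10, with a member median of 0.057, so the direction was not stable. With 3 arrays per group such a change has a wide SE, from 0.26 for Alas2 to 0.58 for Klf1 on the log2 scale. Changes well above the SE also went uncalled: -0.94 for Alas2 at FD22 and -1.36 for Klf1 at P1, each relative to FD19. An uncalled change is therefore not evidence of an unchanged ratio. From FD19 to P1 the change was below 0 in 7 of 10 genes, beside 48.1% of all genes, and the 3 above 0 were Rhd, Gata1 and Car1 at 0.01 to 0.12.

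In total RNA, 2 genes fell at FD22 relative to FD19, Ahsp and Slc4a1, and 0 rose, beside 10.4% lower and 9.68% higher of all genes. Between FD22 and P1, 0 of 10 changed in either direction (2.32% lower and 2.62% higher), and 0 had an unadjusted p under 0.05. At P1 relative to FD19, Ahsp and Slc4a1 were called lower and Alas2 higher, beside 17.2% lower and 13.8% higher of all genes. These shares are near the background. The P1 calls of Slc4a1, Ahsp and Alas2 were lost in 10, 4 and 2 of 19 alternatives. The summed signal of the 9 members other than Alas2 was 1269.9 to 2068.8 in total RNA at P1 and 2067.5 to 3229.3 at FD19, and in polysomal RNA it was 444.2 to 680.9 at P1 and 746.1 to 1362.5 at FD19. Total RNA of the first FD19 lysate held the highest of these sums.

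**Figure D3:**
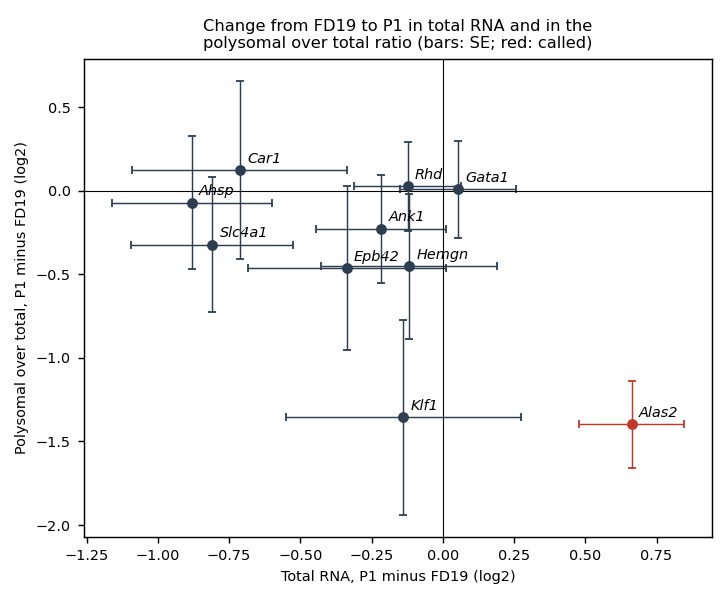
Change from FD19 to P1 of each gene in total RNA (x axis, log2) and in the polysomal over total ratio (y axis, log2), with bars of 1 SE and the called ratio change in red. Alas2 stands alone at lower right, with total RNA at 0.66 and the ratio at -1.4; Klf1 has a similar ratio change of -1.36 with a wider error, and the total RNA of Ahsp and Slc4a1 is at -0.88 and -0.81.

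Across the 18 arrays each member followed the mean of the standardised members with a Pearson r between 0.817 (Ank1) and 0.964 (Ahsp). Each member is part of that mean, so its r is partly built in and is not comparable with the r of other genes. The genes outside the set that followed the member mean most closely were Znf780b (r = 0.951), H19 (0.946), Rplp0 (0.943), Zfp180 (0.942) and Rpl35a (0.942). Lyrm2 (0.941), Pcbp2 (0.941), Srcap (0.94), St6galnac6 (0.936) and Thap12 (0.936) came next. The arrays share lysates and scaling, so these are descriptions. The mean ratio over the stages was -2.33 for the noncoding RNA H19. It was -1.55 for the ribosomal protein gene Rplp0 and -1.11 for the ribosomal protein gene Rpl35a. Genes were picked here for likeness to a mean that is low on polysomal arrays, so their low ratios were largely fixed by that choice.

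The promoters of 3 members are shown because these genes shared the deficit and their RefSeq starts (rat build GRCr8) lie at the outer end of the annotated gene or, for Rhd, 40 bases inside it. Each run is the 250 bases before the start, 5′ to 3′ on the gene's strand, and capitals mark the letters GATA preceded by A or T and followed by A or G, on either strand, the core that GATA factors recognise. Epb42 is at chr3:128451684-128451933 (minus strand), Klf1 at chr19:40158652-40158901 (minus strand) and Rhd at chr5:152370950-152371199 (plus strand).
Epb42: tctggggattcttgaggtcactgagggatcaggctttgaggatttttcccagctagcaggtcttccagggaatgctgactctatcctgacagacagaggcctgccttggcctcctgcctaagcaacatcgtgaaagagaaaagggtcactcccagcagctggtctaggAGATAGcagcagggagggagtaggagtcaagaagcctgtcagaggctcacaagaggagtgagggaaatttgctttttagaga
Klf1: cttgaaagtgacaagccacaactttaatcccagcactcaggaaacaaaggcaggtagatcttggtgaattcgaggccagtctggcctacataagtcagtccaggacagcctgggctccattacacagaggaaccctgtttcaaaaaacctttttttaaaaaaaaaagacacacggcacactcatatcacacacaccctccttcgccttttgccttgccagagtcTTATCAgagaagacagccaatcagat
Rhd: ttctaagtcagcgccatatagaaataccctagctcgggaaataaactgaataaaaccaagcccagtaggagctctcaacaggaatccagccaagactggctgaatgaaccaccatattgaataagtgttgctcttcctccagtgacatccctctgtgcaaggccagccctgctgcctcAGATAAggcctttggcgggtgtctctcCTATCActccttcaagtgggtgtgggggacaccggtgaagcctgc

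Epb42 held 1 such match 82 bases before the start, Klf1 held 1 at 26 bases, and Rhd held 2, at 72 and 45 bases. Of all 33469 promoters searched in the same window, 27.0% held at least 1. The letters CCNCNCCC, the kind of site that KLF factors bind, on either strand, were found once in the Rhd window, 28 bases before the start and apart from its GATA matches, and in 42.8% of all promoters. Entries for Alas2 (1 GATA match), Gata1 (0) and Hemgn (2 entries, with 2 and 0) start within the annotated gene. Slc4a1, Ahsp, Car1 and Ank1 had no entry. A match is a stretch of letters and was not tested for binding.

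Other genes of the red cell showed a mixed picture, counted as the mean ratio over the 3 stages (limma), for which 22.2% of all genes were called lower and 25.0% higher. No list was tested against those shares. Among 8 measured genes of the membrane and its skeleton, 3 were lower on polysomes and 1 higher, with a median of -0.18. Kel, which encodes the Kell blood group protein, was lower (-1.44 ± 0.19, adjusted p = 7.3e-06), with signals of 17.3, 22.1 and 21.8 in polysomal RNA and 59.2, 74.9 and 114.5 in total RNA at P1. It exceeded the filter level on 1 of 9 polysomal and 8 of 9 total arrays, so its deficit was partly fixed by the filter, and this holds too for Zfpm1, Pim1, Ppbp and the globin gene Hbz below, with 0 polysomal arrays above it, and for the globin gene Hbe2, with 2. Xk, whose product is joined to Kell in the human red cell, was higher on polysomes (0.80 ± 0.18, adjusted p = 0.0017). It exceeded the filter level on 5 of 9 polysomal and 2 of 9 total arrays, so its excess was partly fixed by the filter. The same holds for Ppox, counted among the higher heme genes below, with 6 polysomal and 2 total arrays above it. Pklr, counted among the lower red cell enzymes below, had 2 polysomal and 9 total arrays above it, so its deficit was partly fixed too. The skeleton genes Dmtn (-0.56 ± 0.22, adjusted p = 0.0437) and Epb41 (-0.28 ± 0.10, adjusted p = 0.0295) were lower.

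Of 12 genes of heme synthesis beside Alas2, 4 were lower and 5 higher on polysomes, with a median of -0.08. The lower ones included Slc6a9, the glycine transporter (-1.01 ± 0.10, adjusted p = 2.42e-07), Slc25a37, the mitochondrial iron importer mitoferrin 1 (-0.79 ± 0.11, adjusted p = 2.27e-05), and Fech, which inserts iron into the ring (-0.62 ± 0.12, adjusted p = 0.000265). The higher ones included Alad, the enzyme after Alas2 (0.92 ± 0.11, adjusted p = 1.82e-06), and Tmem14c, a porphyrin transporter (0.67 ± 0.10, adjusted p = 3.94e-05). In total RNA at P1 relative to FD19, Alad (-0.99), Cpox (-0.94) and Fech (-0.60) fell and Alas1 rose, while 0 of the 12 had a called ratio change. Most of these genes are used by many cell types, and the lung's own share of their RNA was not measured.

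Among 14 other transcription factors of blood formation, 4 were lower and 0 higher on polysomes, with a median of -0.13: Zfpm1, the partner of GATA1 (-0.99 ± 0.22), Nfe2 (-0.73 ± 0.16), E2f2 (-0.48 ± 0.08) and Bcl11a, which in humans and mice represses fetal or embryonic globins (-0.39 ± 0.11). Of 12 red cell enzymes, 6 were lower and 3 higher, with Gpx1 (-0.81 ± 0.12) and Car2 (-0.48 ± 0.08) lower and Pnp (0.67 ± 0.07) and Hagh (0.52 ± 0.08) higher. Of 8 genes of erythropoietin signalling and iron entry, 4 were lower and 1 higher. The kinase gene Pim1 (-1.22 ± 0.20) and the erythropoietin receptor gene Epor (-0.67 ± 0.18) were among the lower ones and Jak2 (0.34 ± 0.11) was the higher one. Of 10 genes of late maturation, 4 were lower and 0 higher, with Rnf10 at -0.91 ± 0.15 and Bnip3l, needed in mice to clear mitochondria from reticulocytes, at -0.63 ± 0.07.

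All 6 measured globin genes were lower on polysomes, with a median of -1.22 and a range from -1.82 (Hbg1) to -0.40 (Hbb). Of 8 genes of platelets and megakaryocytes, 3 were lower and 1 higher: Ppbp (-0.79 ± 0.16), Clec1b (-0.72 ± 0.13) and Pf4 (-0.55 ± 0.12) were lower and Itgb3 (0.25 ± 0.09) was higher. Summed over the 9 such genes on the array, the signal in total RNA was 859.9 to 1027.6 at FD19, 1446.1 to 1527.6 at FD22 and 1766.5 to 1969.3 at P1, so it was higher at each later stage. The 7 lung epithelium genes gave 2 lower and 4 higher, and the 4 endothelial genes 0 lower and 2 higher.

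**Figure D4:**
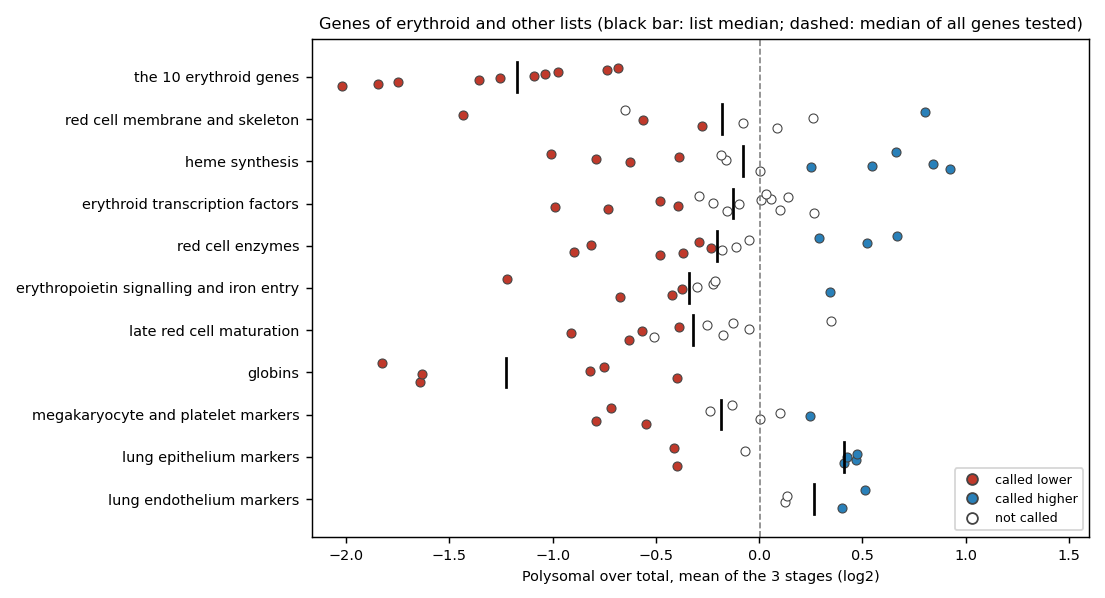
Mean log2 ratio of polysomal to total RNA over the 3 stages, with a point for each measured gene of the lists named at left, the list median as a black bar and the median of all genes as a dashed line; red is called lower, blue called higher and white not called. The 10 erythroid genes and the globins lie wholly below 0, with medians of -1.17 and -1.22, while the other erythroid lists reach both sides of 0.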

How the data were processed

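RNA of 9 rat lung lysates was measured on 18 Affymetrix rat expression arrays. The deposited values are linear intensity per probe set, made by the authors with GCOS 1.4 per the submitters' processing notes; the algorithm and the scaling step are not given in the sources used here. The 31099 probe sets include 57 array controls, which were left out. From these intensities log2(signal + 5.5) was computed, 5.5 being the 10th percentile of all values, and 21675 probe sets above 40.8 (the 40th percentile) on at least 3 arrays were kept. Of the probe sets other than controls, 20826 name 1 gene, 436 name several and 9780 name no gene. Each of 11590 genes was represented by its brightest kept probe set, which also stands for the member in counts.

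limma 3.58.1 in R 4.3.3 fitted 6 group means (12 residual degrees of freedom, eBayes with a trend), with Benjamini-Hochberg adjustment over all kept probe sets and a threshold of 0.05. The fit was tested on simulated data. The design pairs the polysomal and total array of 1 lysate. Deviations of such pairs from their group means were positively correlated (0.186 to 0.488, 9 of 9 pairs), so an alternative took the lysate as a block. Total arrays with equal numbers at P1 and FD19 also correlated (0.119 to 0.313), while those of other stage pairs did not all exceed 0.1. The members, gene lists, naming rule and tests were chosen with earlier results of these data known. From each list up to 4 genes with the smallest p for the mean ratio and for total RNA at P1 against FD19 could be named. A description by protein length was not made here. Tables and figures used Python 3.11.15, pandas 2.3.3 and matplotlib 3.10.9.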

Additional observations from a re-analysis of the deposited data

Results flagged for a closer look

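For Alas2 the log2 ratio of polysomal to total RNA differed between stages by the test of the difference itself. It was -1.4 at P1 relative to FD19 (limma, adjusted p = 0.0459), with the polysomal signal at 23.4% to 30.6% of the total signal at P1 and 63.0% to 79.6% at FD19. All 3 lysates of P1 were lower than all 3 of FD19. The call was lost in 12 of 19 alternatives, among them those without any 1 lysate of FD19 or P1 (limma, adjusted p = 0.117 to 0.265).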

How the results depend on the processing

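The mean ratio over the 3 stages was called lower for every member tested in each alternative except Ank1 with the lowest probe set of each gene (-0.326, adjusted p = 0.321), and with the 60th-percentile filter 8 members were tested. Other counts moved. Median centring shifts the median ratio of all genes to 0.20, against 0.06 with quantile normalization, and the members' median was then -0.97 and -1.10. Of 904 results of single genes under the alternatives, 814 kept their direction and their side of the threshold, 77 lost their call and 12 gained one. One turned: Ank1 at FD19 was 0.0287 with the lowest probe set of each gene (adjusted p = 0.972). The count of members called lower at FD19 was 10 in the paired fit with the replicate block (background 14.7%). It was 3 to 7 without 1 lysate (background 3.81% to 10.6%). The count for the ratio change at P1 relative to FD19 was 0 without the filter (background 0.0518%). It was also 0 with median centring, without the variance trend and with arrays 2 and 3 only (0.0% each). Without 1 lysate it was 0 to 1 (0.0% to 0.466%). In total RNA at FD22 relative to FD19 the members called lower were 0 with arrays 2 and 3 only (background 6.36%) and 1 with the lowest probe set. Without 1 lysate they were 1 to 2 (6.48% to 10.3%). At P1 relative to FD19 they were 1 without the filter (15.8%), with median centring (15.1%), without the variance trend (16.2%) and with the lowest probe set. They were 0 with arrays 2 and 3 only (12.1%) and 0 to 2 without 1 lysate (12.8% to 18.2%). Those called higher at P1 were 0 to 1. Where not stated in the results, the cause was not tested. Signals of Klf1 and Epb42 near the added constant limit their ratios.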
